A study of Mus musculus with 3 samples.

Results

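Of the 19301 N6-methyladenosine (m6A) sites predicted in the mouse macrophage cell line RAW264.7, 122 (0.632%) lay in exons of genes that GENCODE M21 does not type as protein-coding. These 122 sites belonged to 50 genes, which were chosen by the list of sites itself: a gene entered when it was not mitochondrial and at least 1 site fell in its annotated exon on the same strand, outside every protein-coding exon on that strand. That a gene held a site is therefore no finding, and the counts and scores that chose the genes are given as a description without a test. Exons of 5000 protein-coding genes held 19129 sites (99.1%), 48 sites (0.249%) lay in no annotated exon on their strand, and 2 were mitochondrial. The 50 genes were 34 long noncoding RNA (lncRNA) genes, 11 pseudogenes, 3 genes for short RNA fragments, 1 gene of the type TEC (to be experimentally tested) and 1 immunoglobulin constant gene.

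RAW264.7 is an established line (ATCC TIB-71), and all 3 biological replicates were untreated, so the data hold 1 condition. The assay, miCLIP2, was run on poly(A)+ RNA. In it, an anti-m6A antibody is crosslinked to fragmented RNA by UV light and reverse transcription stops next to the crosslinked base. The authors called peaks in each replicate, kept those found in at least 2 of the 3, and had the classifier m6Aboost score every peak at an A. The result is 1 pooled list with a position, a strand and a score per site, without read counts, values per replicate or RNA levels, so neither the depth behind a site nor its variation between replicates is known, and nothing was tested across replicates.

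The mark m6A is placed on nascent RNA by a nuclear methyltransferase complex built on METTL3 and METTL14, mostly at the motif DRACH (D is A, G or T, R is A or G, H is A, C or T), and is read by proteins that act on splicing, export, stability and translation. LncRNAs carry it as mRNAs do, although they have no stop codon or 3′ untranslated region by which sites are usually placed. Neat1 and Malat1, the best known nuclear lncRNAs, stay in the nucleus at paraspeckles and nuclear speckles, and their long forms end in a processed 3′ end in place of an ordinary poly(A) tail. The m6Aboost score, which runs to 1 and was cut at 0.5 by the authors, describes how firmly the model called a site. It is not a methylation level, and the model used the 21 bases around the A, the transcript region, the relative signal and the C-to-T transitions seen at the site.

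Scores of 0.9 or more were reached by 13 sites in 7 genes, shown here because they are the firmest calls among the 122. Their sequences run 5′ to 3′ in the sense of the RNA, read from GRCm38, with the 5 bases centred on the called A in capitals.
Malat1, chromosome 19, minus strand, 5801467, score 0.983: tgacaaaaGGACTtttgataa
Zfp862-ps, chromosome 6, plus strand, 48512341, score 0.981: gcctagatGAACTcttgtcta
Malat1, chromosome 19, minus strand, 5800208, score 0.954: accttcagGGACTggagctgc
Neat1, chromosome 19, minus strand, 5844026, score 0.947: tgtgctgcGAACTtggcctcg
Neat1, chromosome 19, minus strand, 5844453, score 0.946: tgcttcatGGACGtggtttat
G730013B05Rik, chromosome 16, plus strand, 50557863, score 0.946: atgataatGGACTcctgcacc
Malat1, chromosome 19, minus strand, 5801425, score 0.942: tttgcattGGACTtgagctga
Neat1, chromosome 19, minus strand, 5843993, score 0.938: aaggtgtaGGACActttaacg
Malat1, chromosome 19, minus strand, 5801285, score 0.922: gctaggaaGGACTgaggagcc
AC132148.1, chromosome 19, plus strand, 10292906, score 0.921: aaggcgatAAACTttctttgg
Gm42047, chromosome 8, plus strand, 121836970, score 0.913: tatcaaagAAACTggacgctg
Neat1, chromosome 19, minus strand, 5844504, score 0.905: gtgagtgtGGACCctggggtg
Gm8995, chromosome 7, minus strand, 106511585, score 0.904: cagaagtgGGACTgtctgttg

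Malat1 and Neat1 held 8 of these 13 sites between them, 4 each, but differed in motif. All 4 in Malat1 were at GGACT, whereas the 4 in Neat1 were at 4 different motifs and none at GGACT. Of all 13, 6 were at GGACT and 12 at DRACH, the exception being the GGACG site of Neat1.

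Most genes held 1 or 2 sites, and a few held many. Of the 50 genes, 26 held 1 site, 11 held 2 and 13 held 3 or more. Neat1, 9930014A18Rik and Malat1 together held 33 sites, and the 7 richest genes held 56. The scores ran from 0.502 to 0.983 with a median of 0.726 (quartiles 0.626 and 0.827), against a median of 0.734 (0.628 and 0.832) for the sites in protein-coding exons. LncRNA sites had a median of 0.739 and pseudogene sites one of 0.676. At the threshold, the lowest scores were 0.502 in F730043M19Rik and 0.508 and 0.510 in Neat1. The genes whose best site was nearest to the threshold were Ighm (0.518), Gm14681 (0.550) and AI839979 (0.562). What lay just under 0.5 is not in the list.

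**Figure D1:**
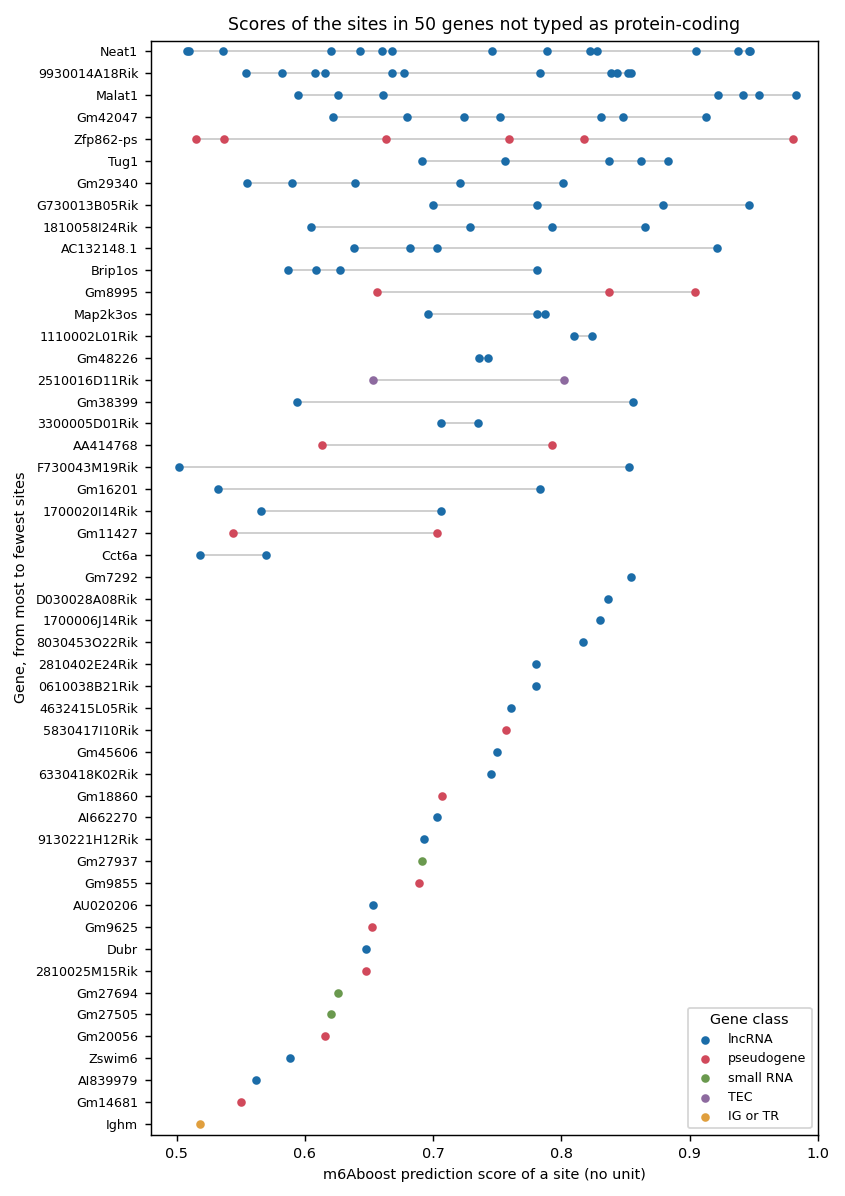
Prediction score (x axis, no unit) of each site in the 50 genes (rows, from most to fewest sites), coloured by gene class, with a grey line from the lowest to the highest score of a gene. Neat1 spans 0.508 to 0.947 over 15 sites, while 26 genes hold 1 site each; a site in 2 genes is drawn in both.

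The noncoding label was checked against RefSeq annotation of the same build and did not hold throughout. Of the 122 sites, 87 in 34 genes lay in RefSeq exons of noncoding RNAs or pseudogenes, and 15 in 8 genes lay in no RefSeq exon. The other 20 sites, in 8 genes, lay in RefSeq mRNA or immunoglobulin exons. These were Gm42047 with 7 sites, 1810058I24Rik with 4, AA414768, Cct6a and Gm38399 with 2 each, and Gm20056, Zswim6 and Ighm with 1 each. In 5 of these genes the sites, 8 in all, were in coding sequence by RefSeq. Cct6a encodes a subunit of the cytosolic chaperonin CCT and Zswim6 a zinc finger protein, and M21 types both as processed_transcript. The sites of Gm38399 fell in a model mRNA of Nav1, that of Gm20056 in one of Tm4sf19, and those of Gm42047 in one of Gm42048. Scores of the 4 sites of 1810058I24Rik were 0.605, 0.729, 0.793 and 0.865, all in its last exon. Those of Gm42047 ran from 0.622 to 0.913, those of Gm38399 were 0.594 and 0.856, those of Cct6a 0.518 and 0.570, and that of Zswim6 0.588. The 8 genes keep their M21 names below and stay in the counts. Without their 20 sites there were 42 genes and 102 sites, of which 89.2% were at DRACH and 78.4% in the last exon, with a median score of 0.735.

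Neat1, the RNA scaffold of paraspeckles, held the most sites, 15, on the minus strand of chromosome 19 (gene at 5824708 to 5845478). The scores ran from 0.508 to 0.947 with a median of 0.746. All 15 lay between nt 740 and 2880 of the 20771-nt unspliced transcript, a stretch of 2141 nt that makes up 10.3% of its length. That stretch, which by definition runs from the first to the last site, contains 37 A in a DRACH motif, of which 13 (35.1%) were listed, and the rest of the transcript contains 366. The 2-exon transcript of 3004 nt, which has support level 1, contains all 15 sites and 61 DRACH A. A 1030-nt transcript contains 9 of the sites, and a 711-nt one none. The assay used poly(A)+ RNA, while the long form ends without an ordinary poly(A) tail. The 10.3% and the 366 DRACH A outside the stretch describe the long form only. Since the short and the long form share this stretch, the list cannot say which of them carried the sites, and an A without a listed site is not thereby unmethylated.

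Within the stretch the sites were close together, with a median gap of 75.0 nt, the smallest 7 nt and the largest 574 nt. The motifs were mixed, with 3 GGACT sites (0.620 to 0.828), 2 sites at GGACC (0.746 and 0.905), 2 at GGACA, 2 at GGACG and 1 at each of 6 other motifs. The GGACG pair lies outside DRACH and had scores of 0.946 and 0.536. Scores thus differed widely within 1 motif, as they did for the GGACA pair, at 0.938 and 0.510.

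Malat1, a nuclear speckle RNA and Neat1's neighbour on chromosome 19 (5795690 to 5802672, minus strand), held 7 sites with a median score of 0.922. They lay between nt 1206 and 3605 of the 6983-nt transcript. The 4 GGACT sites had scores of 0.922, 0.942, 0.954 and 0.983. The other 3, at TGACT (0.661), AAACA (0.626) and TAACA (0.595), were all lower, and the groups of scores did not overlap, but the model had the motif among its inputs. In the stretch from first to last site 7 of 40 DRACH A (17.5%) were listed, with 82 more outside it.

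Tug1, a lncRNA with nuclear and cytoplasmic roles that M21 types as antisense, held 5 sites on chromosome 11 (3639785 to 3649673, minus strand). Each of the 5 sites had another motif, all ending in ACT, with scores of 0.883 (TGACT), 0.862 (GGACT), 0.837 (GAACT), 0.756 (AAACT) and 0.691 (AGACT). Exon 1 held 4 of them and exon 2 held 1, all within nt 494 to 1453 of the 6719-nt transcript. Over the 1993 bases of the genome from the first to the last site, all of them exonic in at least 1 transcript of the gene, 5 of 56 DRACH A (8.93%) were listed.

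**Figure D2:**
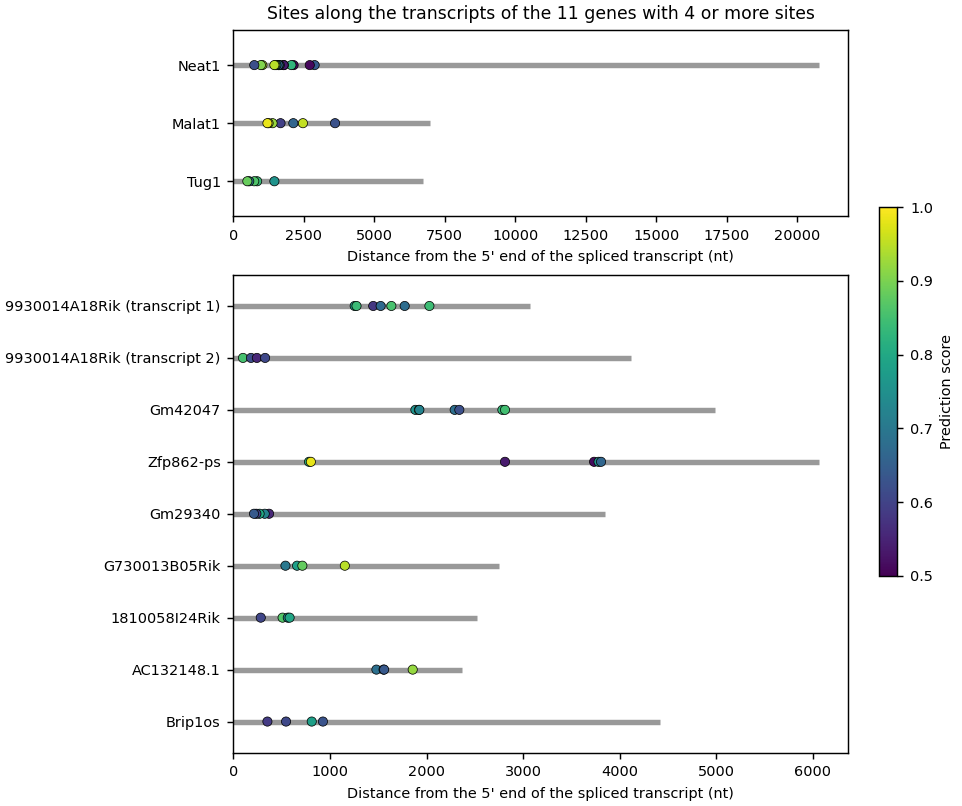
Sites along the longest spliced transcript that holds them (x axis, distance from the 5′ end in nt, grey bar to the full length) in the 11 genes with 4 or more sites, coloured by prediction score; the upper panel has a longer axis. The 15 sites of Neat1 lie between nt 740 and 2880 of 20771.

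9930014A18Rik, of unknown function, was second with 11 sites on the plus strand of chromosome 15 (gene at 60822271 to 60831793), opposite the coding gene Fam84b. The 11 sites lay within 1143 nt of exon, all of them inside the 2513-nt exon 1 of a 3-exon transcript of 3074 nt. By the longest transcript that held each site, 7 were placed on that transcript. The other 4 were placed in exon 1 of an overlapping 2-exon transcript of 4116 nt. The scores ran from 0.554 to 0.854, and none reached 0.9. The 4 GGACT sites had scores of 0.616, 0.839, 0.852 and 0.854, and the 2 AAACT sites had 0.783 and 0.843. Of the 23 DRACH A in the stretch 9 (39.1%) were listed.

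Other lncRNAs lie opposite coding genes. In all, 25 sites (20.5%, 95% Wilson interval 14.3 to 28.5) in 10 genes fell inside the span of a protein-coding gene on the other strand, against 5.06% (4.75 to 5.37) of the sites in protein-coding exons. This contrast is tied in part to the annotation, as M21 types AC132148.1, 1110002L01Rik, 1700006J14Rik, 6330418K02Rik and 9130221H12Rik as antisense. 9930014A18Rik gave 11 of the 25. AC132148.1, opposite Dagla, which encodes a diacylglycerol lipase, gave 4 with scores of 0.638, 0.682, 0.703 and 0.921. 1110002L01Rik, opposite the kinesin gene Kif3c, gave 2 sites 70 nt apart with scores of 0.810 and 0.824. Gm16201, opposite 6430531B16Rik, gave 2 at 0.532 and 0.783. Single sites were in 1700006J14Rik opposite Hmga2, which encodes a chromatin protein (0.830), D030028A08Rik opposite the transcription factor gene Sp2 (0.836), 8030453O22Rik opposite Dennd2a (0.817), 6330418K02Rik opposite Gal3st4 and Gm43720 (0.745), 9130221H12Rik opposite the kinase gene Gsk3a (0.693) and Gm48226 opposite Gphn (0.743). miCLIP2 keeps the strand of the RNA, so these sites were called on the lncRNA's own strand.

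The sequences of the pair in 1110002L01Rik and of the 3 sites of highest score in 9930014A18Rik are given as examples (capitals as above). The pair is both sites of its gene, whereas the 3 were picked by score, to which the motif contributed. Outside DRACH lay 3 other sites opposite coding genes: those at AGACG (0.677) and GGACG (0.608) in 9930014A18Rik and at GCACT (0.532) in Gm16201.
1110002L01Rik, chromosome 12, minus strand, 3405630, score 0.824: cgcagacaGGACCctgaatgg
1110002L01Rik, chromosome 12, minus strand, 3405560, score 0.810: gccacacaGAACTtctggcag
9930014A18Rik, chromosome 15, plus strand, 60823906, score 0.854: tacgctgtGGACTctcgttca
9930014A18Rik, chromosome 15, plus strand, 60824439, score 0.852: gagcctccGGACTagactcac
9930014A18Rik, chromosome 15, plus strand, 60824300, score 0.843: ggaaatagAAACTttattcca

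Gm29340, on chromosome 2 and without a RefSeq exon, had the densest run among the genes with 4 or more sites. Its 5 sites, with scores of 0.555, 0.590, 0.639, 0.721 and 0.801, lay within 157 nt at the 5′ end of the 3854-nt transcript, from nt 213 to 369. That stretch contains 7 DRACH A, of which 5 (71.4%) were listed. Brip1os held 4 sites within 576 nt (0.587 to 0.781), 2 of them at GTACT, outside DRACH. Map2k3os, named for the stress kinase gene Map2k3, held 3 sites in its last exon, with scores of 0.696, 0.781 and 0.787, each within 108 nt of the next.

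1700020I14Rik is the RefSeq gene Oip5os1, the lncRNA Cyrano, known for its site for the microRNA miR-7. It held 2 AGACT sites 21 nt apart, at nt 499 and 520 of 8300, with scores of 0.566 and 0.706. The lncRNA Dubr held 1 site at 0.648. F730043M19Rik held 2 sites 19 nt apart that differed widely in score, 0.502 at GAACA and 0.853 at AAACT. 3300005D01Rik held 1 site in its first exon (0.735) and 1 in its last (0.706), and both sites of Gm48226 (0.736 and 0.743) were within nt 120 to 168 of 4240. The TEC gene 2510016D11Rik, inside the coding gene Tpcn1 on the same strand, held 2 at 0.653 and 0.802. The only site of Gm7292 (0.854) lay near the other end of its transcript, 201 nt from the 3′ end of 2527 nt. Among the remaining lncRNAs 2810402E24Rik and 0610038B21Rik each held 1 site at 0.780, 4632415L05Rik 1 at 0.761, Gm45606 1 at 0.75 and AU020206 1 at 0.653.

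In G730013B05Rik, a lncRNA on chromosome 16, the same bases were called at some copies of a tandem repeat and not at others. The gene held 4 sites, all in masked repeat sequence in the last of 6 exons, with scores of 0.70, 0.781, 0.879 and 0.946. The last 3 lie in a repeat in which the motif and its neighbouring bases recur 11 times, each copy 55 nt from the next. Of the 11 copies 10 have the same 21 bases, and only 2 of those 10 were listed.
G730013B05Rik, 50557313, not listed: atgataatGGACTcctgcacc
G730013B05Rik, 50557368, score 0.781: atgataatGGACTcctgcacc
G730013B05Rik, 50557423, score 0.879: atgataatGGACTcctgcgcc
G730013B05Rik, 50557478, not listed: atgataatGGACTcctgcacc
G730013B05Rik, 50557863, score 0.946: atgataatGGACTcctgcacc

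Among the 11 copies, the 3 listed were also those whose 75 nt downstream occur once in the gene, whereas those of the 8 copies not listed occur 2 or 3 times. With 50 nt downstream the match was partial: 2 copies occur once and both were listed, but those 50 nt of the listed copy at 50557368 (0.781) occur 6 times, as often as those of some copies not listed. The stretch lengths were chosen after the sites were seen. The authors kept only reads that map to 1 place, and the part of that filter in this pattern was not tested.

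**Figure D3:**
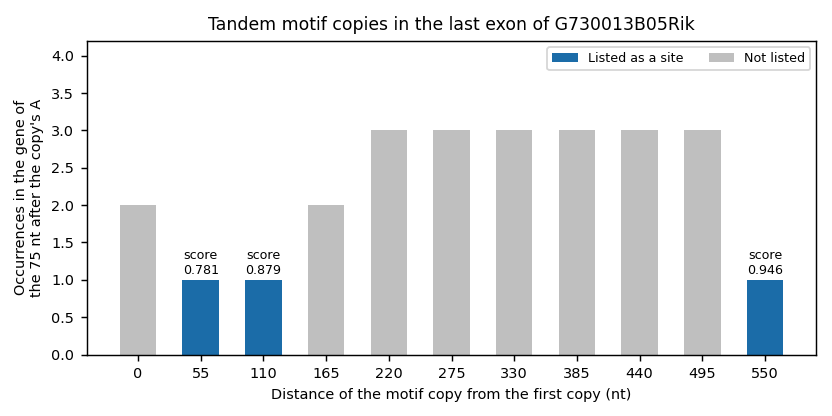
The 11 copies of the motif in the last exon of G730013B05Rik (x axis, distance from the first copy in nt) and how often the 75 nt after each copy's A occur in the gene (y axis). Blue bars are the 3 copies listed as sites, each with its score, and all 3 stand at 1, while the 8 grey bars stand at 2 or 3.

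Pseudogenes held 20 sites in 11 genes, and 17 of the 20 had a 41-nt surrounding sequence found once in the genome. The exceptions were Gm9855, a thymine DNA glycosylase pseudogene whose sequence recurs in Tdg-ps, Gm9625, which recurs in Gm14165 and Gm8730, and Gm18860, which recurs in the coding gene Cnot8, a deadenylase subunit. Each had 1 site (0.689, 0.652 and 0.707), and the part of the copies in these sites was not tested. Zfp862-ps, a unitary pseudogene of a zinc finger gene, held 6 of the 20 sites in 3 exons, with scores of 0.515, 0.537, 0.663, 0.759, 0.818 and 0.981. Its top pair lies 19 nt apart in exon 3.
Zfp862-ps, chromosome 6, plus strand, 48512322, score 0.818: cctctgggGGACTttgatggc
Gm18860, chromosome 8, minus strand, 71704257, score 0.707: gaggatgtGGACTgtgcccag

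Gm8995, on chromosome 7, held 3 sites within nt 87 to 299 of a 7280-nt transcript, with scores of 0.656, 0.837 and 0.904. Gm11427 held 2 (0.544 and 0.703), the second shared with the lncRNA AI662270. 5830417I10Rik, of 19 exons, held 1 in exon 16 (0.757), 2810025M15Rik 1 at AGACG (0.648), and Gm14681 1 at GGACG (0.550). AA414768, which RefSeq holds as a curated mRNA, had 2 sites 14 nt apart at 0.613 and 0.793, and Gm20056 had 1 at 0.616 that lies 498 nt past the annotated end of Tm4sf19.

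The 3 short RNA genes are no separate evidence. Gm27937, Gm27694 and Gm27505, of type misc_RNA and 88, 86 and 110 nt long, lie inside Tug1, Malat1 and Neat1, and their single sites (0.691, 0.626 and 0.620) are sites of those lncRNAs. Ighm, the constant region of the immunoglobulin mu heavy chain, held 1 site at 0.518 in exon 4.

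Lists of known noncoding RNAs were compared by their counts, beside 0.335% of all lncRNA genes and 0.149% of all genes not typed as protein-coding that held a site. Among 10 nuclear and architectural lncRNAs, Malat1 and Neat1 held 22 sites and the other 8 none. Tug1 was the only one of 10 cytoplasmic and regulatory lncRNAs with a site under its listed symbol, beside 1700020I14Rik under its M21 name. No site was listed in any of 18 snoRNA host genes, 16 microRNA host genes, 4 genes of the X inactivation centre, 9 imprinted lncRNAs or 7 macrophage and immune lncRNAs found in the annotation. With the share over all lncRNA genes this low, a short list without a site shows nothing about its members. Without RNA levels, a gene with no site cannot be told from one too weakly expressed to be called. A further 24 noncoding genes had 42 sites only where a coding exon overlaps, led by Gm20427 with 6 and Gm15725 and Gm29253 with 4 each, and were left out by the rule.

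The motifs of the 122 sites are given beside those of the sites in protein-coding exons, though the model itself saw these bases. DRACH held 106 of the 122 (86.9%, 79.8 to 91.8) against 92.0% (91.6 to 92.4), and GGACT led in both, at 25.4% (18.5 to 33.8) against 19.3% (18.8 to 19.9). GGACA was less frequent, at 4.92% (2.27 to 10.3) against 13.2% (12.7 to 13.7), and AAACT more so, at 9.84% (5.72 to 16.4) against 5.19% (4.88 to 5.51). GGACG, outside DRACH, made up 5.74% (2.81 to 11.4) against 1.95% (1.76 to 2.16). These 3 motifs were picked out of 20 after their shares were seen, and sites of 1 gene are not independent. By the bases after the A, CT followed in 67.2% (58.5 to 74.9) against 61.6% (60.9 to 62.3) and CA in 13.1% (8.24 to 20.2) against 23% (22.4 to 23.6). C followed in 121 of the 122.

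Of the 16 sites outside DRACH, which lay in 12 genes, 7 were at GGACG, 4 at GTACT and 2 at AGACG. The motif was GCACT in Gm16201 (0.532), GTACC in AI839979 (0.562) and GGATT in 1 more gene. RefSeq mRNA exons held 5 of the 16. The GGATT site, the one where no C follows the A, was in 1810058I24Rik and had a score of 0.729.
1810058I24Rik, chromosome 6, plus strand, 35261538, score 0.729: aaatgaatGGATTtggatagc
Brip1os, chromosome 11, plus strand, 86207314, score 0.609: ttcccctgGTACTgtatctta
4632415L05Rik, chromosome 3, plus strand, 19895610, score 0.761: ctgcagtgGGACGcttccagg

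GGACT had a median score of 0.818 among the 122 sites and 0.803 in protein-coding exons. GAACT had 0.802 against 0.813, AAACT 0.802 against 0.762, and AGACT 0.706 against 0.747. GTACT, outside DRACH, had 0.587 against 0.634.

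Long exons were shared by nearly all sites, 119 of 122 (97.5%, 93.0 to 99.2) lying in an exon over 400 nt, against 91.0% (90.6 to 91.4) in protein-coding genes. The median exon length was 2458 nt against 1555 nt, and 1981 nt without Neat1, Malat1 and 9930014A18Rik. Of the 122, 93 (76.2%, 67.9 to 82.9) were in the last exon, against 69.7% (69.1 to 70.4), but with supported transcripts only the share was 67.9%. That count includes 48 sites (39.3%, 31.1 to 48.2) on single-exon transcripts, where the only exon is also the last, against 3.78% (3.52 to 4.06). Without Neat1, Malat1 and 9930014A18Rik the single-exon share was 26 of 89 (29.2%, 20.8 to 39.4). The 15 Neat1 sites count as single-exon by the longest transcript, although a 2-exon transcript also holds them. Of the 74 sites on multi-exon transcripts 45 (60.8%, 49.4 to 71.1) were in the last exon, against 68.5% (67.8 to 69.2), and the transcript region was an input of the model. The direction rested on 9930014A18Rik, whose 11 sites were all in exon 1: without it, Neat1 and Malat1 the share was 45 of 63 (71.4%, 59.3 to 81.1). Of the same 74 sites, 6 (8.11%, 3.77 to 16.6) lay within 100 nt of an exon junction, against 12.2% (11.7 to 12.6).

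**Figure D4:**
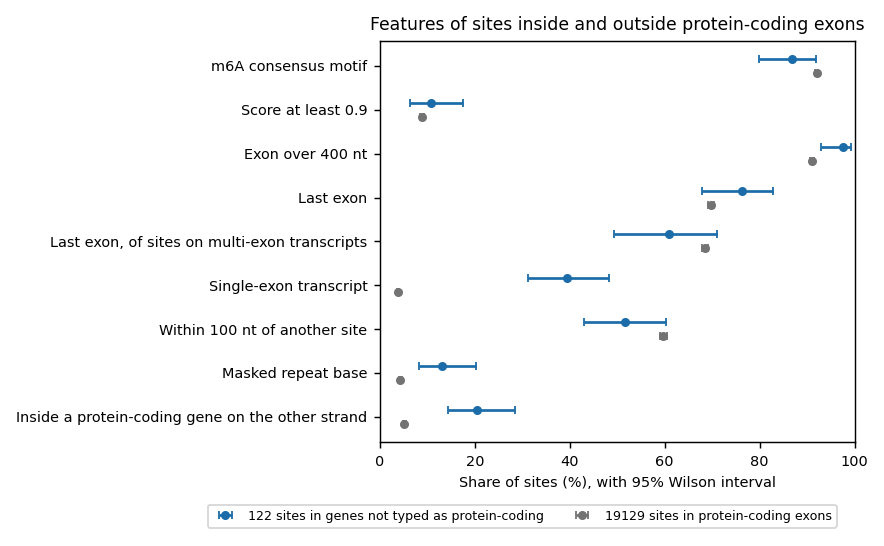
Share of sites (x axis, percent, points with 95% Wilson intervals covering counting error only) with each feature (rows) for the 122 sites in the 50 genes (blue) and the 19129 sites in protein-coding exons (grey). Single-exon transcripts hold 39.3% of the blue and 3.78% of the grey sites; the row for last exons of multi-exon transcripts counts only the sites on such transcripts (60.8% against 68.5%).

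Along the longest transcript that held them, the sites had a median position of 25.1% of the length from the 5′ end (quartiles 8.58 and 54.1), against 50.8% (30.4 and 73.4) for protein-coding genes. The first 10% of the length held 34 of the 122 sites (27.9%) against 4.52%. These include the 4 sites of 9930014A18Rik placed on its 4116-nt transcript, at 2.41% to 7.97%, which also lie far from the 5′ end of its 3074-nt transcript. The last 10% held 3 (2.46%) against 7.25%. This position rested on the choice of transcript: with the shortest transcript that held each site the median was 54.4%. Without Neat1, Malat1 and 9930014A18Rik it was 37.3%.

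**Figure D5:**
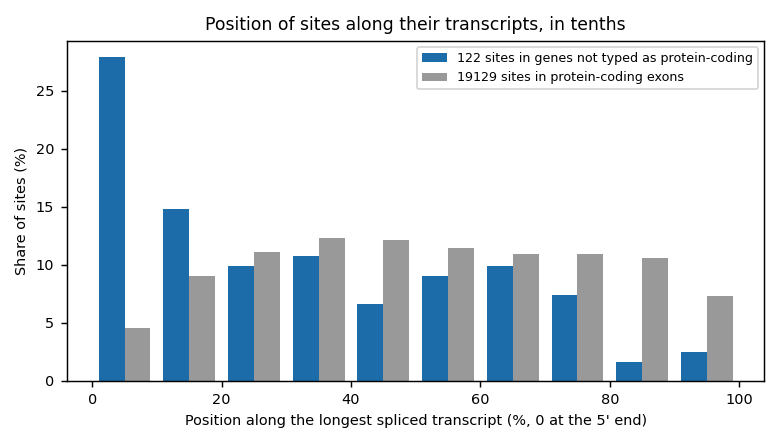
Share of sites (y axis, percent) in each 10% of the longest spliced transcript that holds them (x axis, 0 at the 5′ end) for the 122 sites (blue) and the 19129 sites in protein-coding exons (grey). The first bin holds 27.9% of the blue and 4.52% of the grey sites; the pattern depends on the transcript taken.

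Sites also lay near each other: 63 of 122 (51.6%, 42.9 to 60.3) had another listed site within 100 nt on the strand, against 59.7% (59.0 to 60.4). Genes held a median of 1.00 site against 3.00 for the 5000 coding genes, and 52.0% of them held a single site against 26.1%. The median was 2.00 with lncRNA genes only or with supported transcripts only, and the 26 genes with a single site include the 3 short RNA genes inside Tug1, Malat1 and Neat1. Per kb of exon the medians were close, at 0.663 sites (quartiles 0.398 and 1.37) against 0.610 (0.314 and 1.19). The value of 0.663 also counts these 3 short RNA genes, at 11.4, 11.6 and 9.09 sites per kb. Both sets consist only of genes with a site, so neither is a rate over all genes. Of all 10155 lncRNA genes in the annotation 34 (0.335%) held a site, of 13315 pseudogenes 11 (0.0826%), and of 21938 protein-coding genes 5000 (22.8%).

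Masked repeats held 16 of the 122 sites (13.1%, 8.24 to 20.2) in 8 genes, against 4.25% (3.97 to 4.55) in protein-coding exons. Gm42047 gave 5 and G730013B05Rik 4 of the 16. In Gm42047, on chromosome 8 inside the span of Gm20388, the 41 nt around 3 of 7 sites also occur in transcripts of Gm47761, Gm48362, Gm43549 or Gm47939, and the part of these copies in its sites was not tested.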

How the data were processed

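The authors mapped the reads of 3 replicates to GRCm38 with STAR 2.7.3a, kept uniquely mapped reads, removed duplicates with UMI-tools 1.0.0, called peaks with PureCLIP per replicate, kept peaks in at least 2 replicates and scored those at A with m6Aboost (SAMtools 1.9 and bedtools 2.27.1 are also in their processing notes). The deposited value is the m6Aboost prediction score, at least 0.5, as 1 list pooled over replicates. It holds no counts, so depth and precision per site are unknown. One line of the series description names a human line where organism label and paper have mouse; all 19301 sites were at A on GRCm38 with the start read as 0-based.

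Sites were placed in exons of GENCODE M21 (the authors used a later release), on the longest spliced transcript that held them, with positions 1-based. The motif was the 5 bases centred on the A. Masked bases were those in lower case in the genome. Placement was tested on simulated sites. Shares have 95% Wilson intervals for counting error only, with Python 3.11.15, NumPy 2.4.6, SciPy 1.17.1 and matplotlib 3.10.9. The members and gene lists were chosen with earlier results of these data known. Named genes were the 25 with most sites, the 10 with the highest single score, list members, the 3 with the lowest maximum and every short RNA or immunoglobulin gene; others are named where a feature they hold is described. Alternatives were other score minimums, supported transcripts, collapsed sites, other gene types, motifs and distances.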

Additional observations from a re-analysis of the deposited data

How the results depend on the processing

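Of 78 alternatives 59 left a count within 1.5 times of the reported one, a median within the 95% counting interval of the reported median or a share within its Wilson interval, and 19 did not. Some alternatives crossed the value reported for protein-coding exons, which was not recomputed under them: the median position (54.4% against 50.8%), the last-exon share (67.9% against 69.7%), the DRACH share at minimum scores of 0.7 and 0.9 (94.1% and 92.3% against 92.0%) and the median score (0.739 with lncRNA genes only, 0.746 with supported transcripts and 0.735 without RefSeq mRNA and immunoglobulin exons, against 0.734, beside the higher score minimums). These bounds are wide: the 50 genes fell to 35 at a minimum score of 0.7 and to 34 with lncRNA genes only, the median of 1.00 site per gene was 2.00 with lncRNA genes only or with supported transcripts, and the median position of 25.1% was 37.3% without the 3 genes with most sites. With a minimum score of 0.7 there were 68 sites, with a median score of 0.818, a DRACH share of 94.1% and 41.2% within 100 nt of another site. With a minimum of 0.9 there were 13 sites in 7 genes, with a median of 0.942, a DRACH share of 92.3% and 84.6% in the last exon. With supported transcripts only, 25 genes and 81 sites stayed, 67.9% of the sites in the last exon and 91.4% in lncRNA genes, where 82.0% were without the filter. Reading the start as 1-based gave a DRACH share of 0.00%, which shows the start to be 0-based. The last exon of any transcript held 88.5%. Within 50 nt of another site lay 33.6% and within 200 nt 65.6%. Leaving out RefSeq mRNA and immunoglobulin exons, an alternative added after the data were seen, like leaving out the 3 genes with most sites and taking the shortest transcript, moved the share inside a coding gene on the same strand from 7.38% to 1.96%. The shortest transcript moved the median position from 25.1% to 54.4%. No paired analysis was possible because only 1 condition was profiled and its replicates were merged into a joint list; leaving out a replicate could not be done either. The cause of the other moves was not tested.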
